A study of Zea mays with 30 samples.

Results

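The genes described here are 150 maize genes whose transcripts rose within 6 h of imbibition in both inbred lines studied and had not fallen back when each line germinated. They were chosen on the deposited TPM values (a level scaled for gene length and for the library, summing to 1000000 in each). A gene had to rise by at least 1 between dry seeds and 6 HAI (hours after imbibition) in both lines on the scale of log2(mean TPM of 3 libraries + 1). Its last sampled level, that of 24 HAI for 72-3 and of 48 HAI for F9721, also had to be no lower than at 6 and 12 HAI of the same line. Of the 39005 genes listed, 642 rose by at least 1 in both lines and 249 of these met the second condition. The 150 with the largest rise, taken as the smaller of the rises in the lines, were kept.

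The libraries came from whole seeds of 72-3, the fast germinating line, sampled dry (0 HAI) and at 6, 12 and 24 HAI, and of F9721, the slow germinating line, sampled at the same times and also at 36 and 48 HAI. Each of the 10 groups had 3 libraries, and each library was made from the pooled RNA of several seeds. All seeds were surface sterilized with hydrogen peroxide and imbibed in water on filter paper in a light and dark cycle, so the lines shared all conditions. The lines had been grown in a common field season and their seeds harvested mature. Each genotype is a single inbred line. The methods state that the 3 replicates came from different ears but not which replicate number belongs to which ear. The p values therefore rest on the spread between such libraries. Except where stated, this spread was estimated for each gene over all 10 groups of both lines, not within each line.

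A mature dry seed holds stored mRNAs that were made while it developed on the mother plant and that stay intact in the dry state. Water uptake restarts respiration, translation of stored mRNAs and then transcription, and the first transcripts to accumulate add to this stored pool. Germination in the strict sense ends when the radicle breaks through the covering layers. The tables give gene identifiers of the B73 AGPv4 annotation without names, and the RefSeq gene table used here matched 0 of the 39005, so no function is given for any gene, and seed tissue markers were not checked by name.

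Gene counts summed to 8080968 in the shallowest and 14192708 in the deepest library. The library of 72-3 at 6 HAI replicate 2 stood apart from its group, because it was the highest of the 3 libraries for 146 of the 150 genes, whereas it was the highest for 30.5% of all genes with a read. The library of 72-3 at 24 HAI replicate 1 was at least 4 times above both others of its group for 25 of the 150 genes (16.7%), against 3.86% of all genes with a read. Group medians and counts that rest on either library are given with and without it.

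Together the 150 genes held a small share of the dry seed transcripts and a much larger one at germination. In 72-3 they held between 0.0756% and 0.0787% of all TPM in dry seeds, 0.299%, 0.308% and 0.938% in the 3 libraries at 6 HAI, 1.43% to 2.17% at 12 HAI and 2.96% to 5.54% at 24 HAI. In F9721 they held 0.0967% to 0.136% in dry seeds, 0.498% to 0.600% at 6 HAI, 1.44% to 1.61% at 12 HAI, 3.08% to 3.68% at 24 HAI, 4.04% to 4.69% at 36 HAI and 3.97% to 4.64% at 48 HAI. No dry library overlapped any 6 HAI library of its line, which the choice of genes fixes. In whole seeds, more cells with a transcript and more transcript per cell cannot be told apart.

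**Figure D1:**
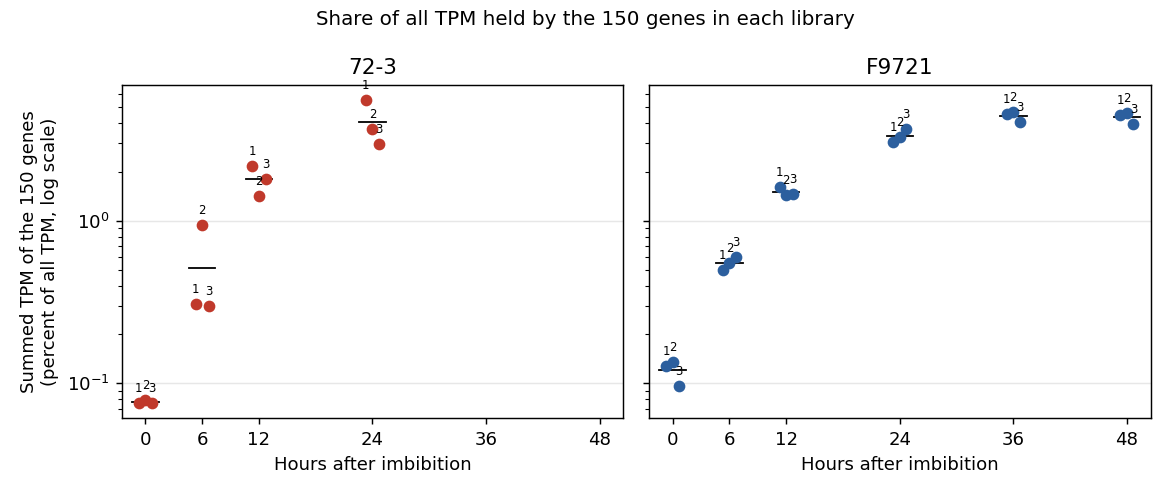
Summed TPM of the 150 genes as a percent of all TPM (vertical axis, log scale) against hours after imbibition, in 72-3 and F9721. Each point is 1 library with its replicate number and each bar the mean of 3. The library of 72-3 at 6 HAI replicate 2 lies at 0.938%, above 0.308% and 0.299% in the other libraries of that group.

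The levels of single genes moved in the same way. The median TPM over the 150 genes was 1.55, 15.6, 41.8 and 94.2 at 0, 6, 12 and 24 HAI in 72-3. In F9721 it was 2.76, 16.0, 31.6, 66.0, 88.7 and 93.8 from dry seeds to 48 HAI. In dry seeds, 19 of the genes in 72-3 and 30 in F9721 reached 10 TPM and 0 reached 100 TPM in either line. At 6 HAI, 97 and 101 genes reached 10 TPM, and at the last time 145 did in each line, of which 74 in each line reached 100 TPM. Without replicate 2 of 72-3 at 6 HAI the median there was 9.11 TPM and 70 genes reached 10 TPM. Without replicate 1 of 72-3 at 24 HAI the median was 67.3 TPM, with 135 genes at 10 TPM or more and 60 at 100 TPM or more.

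**Figure D2:**
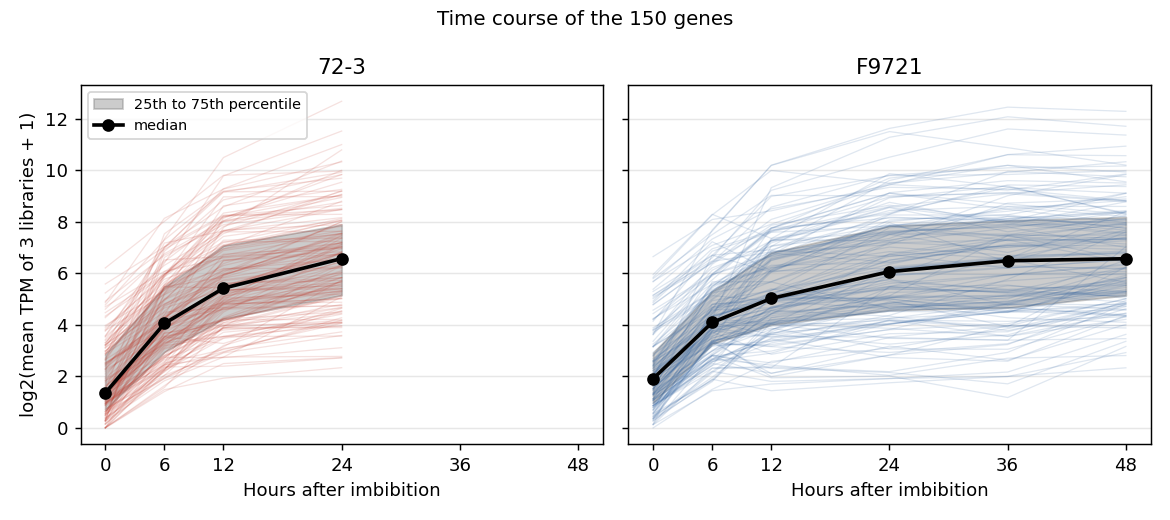
Levels of the 150 genes as log2(mean TPM of 3 libraries + 1) against hours after imbibition, in 72-3 and F9721. Thin lines are genes, the black line is the median and the grey band spans the quartiles. The median climbed from 0 to 24 HAI in 72-3. In F9721 it climbed in smaller steps after 24 HAI, with 66.0, 88.7 and 93.8 TPM at 24, 36 and 48 HAI.

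The rises that chose the genes are given as a description. The rise from dry seeds to 6 HAI spanned 1.28 to 6.56 in 72-3 with a median of 2.14, and 1.27 to 4.78 in F9721 with a median of 1.96 (log2 scale with 1 added). The smaller rise was that of 72-3 for 64 genes and that of F9721 for 86. The last genes kept were Zm00001d039079, Zm00001d048953 and Zm00001d022461, with a smaller rise of 1.28, 1.28 and 1.27, and the first left out were Zm00001d046949, Zm00001d023859 and Zm00001d038873, each at 1.27. Every library at 6 HAI lay above every dry library for 142 genes in 72-3 and 149 in F9721, where 10.5% and 9.77% of all genes with a read did so. A gene was called a DEG where edgeR's quasi-likelihood test gave an adjusted p no larger than 0.01 and a log2 fold change of 2 or more in size. The genes were chosen on this contrast, so counts of DEGs and of genes without overlap are no test of it. In 72-3, 90 of the 150 were higher at 6 HAI than in dry seeds (1.49% of all genes), and in F9721 84 were (1.4% of all genes). With limma on log2(TPM + 1) these numbers were 55 and 54, where 0.708% and 0.705% of all genes were called. Without replicate 2 of 72-3 at 6 HAI the number of DEGs in 72-3 was 51 (0.79% of all genes), and 118 of the 150 genes still rose by at least 1, with a median rise of 1.51. The other 32 rose by less than 1 and 0 of them lay below the dry seeds.

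Several of the genes were close to absent from the dry seeds. In 72-3, 29 genes had at most 3 counts in every dry library, in F9721 18 did, and 13 did in both lines. For these no fold change is given.

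Zm00001d009309 had the largest smaller rise of all. In 72-3 it had 0.561, 0.265 and 0.541 TPM in dry seeds, 25.5, 89.7 and 15.1 at 6 HAI, 46.9, 36.4 and 43.9 at 12 HAI and 144, 115 and 62.7 at 24 HAI. In F9721 it had 2.48, 2.69 and 3.22 TPM in dry seeds, 102, 86.8 and 120 at 6 HAI, 80.4, 61.6 and 53.5 at 12 HAI, 266, 208 and 328 at 24 HAI, 282, 357 and 283 at 36 HAI and 565, 422 and 673 at 48 HAI. F9721 therefore showed a first peak at 6 HAI, a lower level at 12 HAI in all 3 libraries and a second climb. The levels of 72-3 lay below those of F9721 in the dry seeds and at 12 and 24 HAI, with no overlap between the libraries.

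Zm00001d012204 followed almost the same course in both lines. It had 0, 0.387 and 0 TPM in dry seeds of 72-3, 14.6, 44.9 and 15.9 at 6 HAI, 53.6, 50.8 and 61.8 at 12 HAI and 106, 123 and 61.7 at 24 HAI. Its levels in F9721 were 0.330, 0.756 and 0.736 TPM in dry seeds, 24.2, 18.1 and 23.9 at 6 HAI, 38.4, 33.1 and 37.3 at 12 HAI and 106, 86.2 and 108 at 24 HAI. At 36 and 48 HAI in F9721 it stayed between 85.6 and 166 TPM. The libraries of 72-3 and F9721 overlapped at 6 and 24 HAI.

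Zm00001d034221 had 0 counts in all 3 dry libraries of 72-3 and 1, 1 and 0 counts in those of F9721. At 6 HAI it had 7.35, 25.9 and 2.05 TPM in 72-3, and 22.1, 23.6 and 28.1 TPM in F9721. At the last time it had 20.7 to 47.6 TPM in 72-3 and 121, 124 and 29.6 TPM in F9721, the lowest of each group being replicate 3.

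Zm00001d047705 had 0.356 to 0.728 TPM in dry seeds of 72-3, 7.77, 49.9 and 21.5 at 6 HAI, 60.4 to 78.4 at 12 HAI and 75.4 to 118 at 24 HAI. F9721 had 0.608 to 1.90 TPM in dry seeds, 16.2 to 23.2 at 6 HAI, 61.7 to 81.4 at 12 HAI and 102 to 152 at 24 HAI. Its level at 48 HAI in F9721, 137, 105 and 78.8 TPM, overlapped that at 24 HAI. It was among the 10 with the largest smaller rise, as were Zm00001d018107, Zm00001d008288, Zm00001d014317, Zm00001d032094, Zm00001d050093 and Zm00001d032522.

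The most abundant of the 150 at 6 HAI included genes that already had transcripts in the dry seed. Zm00001d028815 had 69.1, 70.5 and 78.8 TPM in dry seeds of 72-3, 175, 381 and 216 at 6 HAI, 852, 866 and 961 at 12 HAI and 985, 946 and 1071 at 24 HAI. In the slow line it had 39.1 to 65.9 TPM in dry seeds, 285 to 324 at 6 HAI, 888 to 1155 at 12 HAI and 543 to 879 at 24 HAI, so that it dipped at 24 HAI before it reached 1044 to 1512 TPM at 48 HAI. For Zm00001d028816, the next identifier in number, the libraries of F9721 overlapped, with 454 to 568 TPM at 12 HAI and 378 to 679 at 24 HAI, and so no dip stood out.

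Zm00001d050864 had 17.3 to 37.2 TPM in dry seeds of 72-3, 184 to 414 at 6 HAI, 567 to 701 at 12 HAI and 932 to 1764 at 24 HAI. The libraries of F9721 had 45.4 to 78.0 TPM in dry seeds, 279 to 335 at 6 HAI, 128 to 190 at 12 HAI, 219 to 292 at 24 HAI, 267 to 450 at 36 HAI and 428 to 647 at 48 HAI. Between 6 and 12 HAI the lines moved in opposite directions in all libraries.

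Zm00001d010588 was the most abundant of the 150 in F9721 at 36 and 48 HAI. In 72-3 it had a mean of 1.09 TPM in dry seeds, then 26.6, 334 and 12.1 at 6 HAI, 380 to 764 at 12 HAI and 3866, 1455 and 801 at 24 HAI. In F9721 it had 55.2, 82.3 and 12.2 TPM in dry seeds, 182 to 211 at 6 HAI, 1056 to 1286 at 12 HAI, 2706 to 3421 at 24 HAI, 5170 to 5860 at 36 HAI and 4714 to 5177 at 48 HAI. Zm00001d013245 climbed to 1007 to 1462 TPM at 24 HAI in 72-3 and to 1349 to 2541 TPM at 48 HAI in F9721, above 45.5 to 49.2 and 88.7 to 110 TPM in the dry seeds of the same lines. Zm00001d029506, Zm00001d021882, Zm00001d023856, Zm00001d014491 and Zm00001d008288 completed the 10 most abundant at 6 HAI.

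A set of 25 genes had a pattern across libraries that their group means hide. These are the genes whose level in 72-3 at 24 HAI was at least 4 times higher in replicate 1 than in both other libraries, a set drawn from the values and given as a description. Zm00001d008288 had 81.8, 446 and 24.7 TPM in the 3 libraries of 72-3 at 6 HAI, 859, 98.0 and 796 at 12 HAI and 2441, 15.9 and 22.7 at 24 HAI. F9721 had 2529 to 3156 TPM at 24 HAI, 2481, 2512 and 641 at 36 HAI and 1317, 1697 and 508 at 48 HAI. Zm00001d050093 had 568, 27.2 and 2.12 TPM, Zm00001d032522 327, 7.96 and 5.80, and Zm00001d029506 893, 16.4 and 26.2 in 72-3 at 24 HAI.

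The same libraries were high or low for nearly all of these 25 genes. All 25 were highest in replicate 2 of 72-3 at 6 HAI, as were 146 of the 150 genes, so this does not mark the set. All 25 were lowest in replicate 2 of 72-3 at 12 HAI, where 73 of the 150 genes were lowest. In F9721, 21 of the 25 were lowest in replicate 3 at 36 HAI and 22 in replicate 3 at 48 HAI, where 93 and 92 of the 150 genes were lowest. That replicate was at least 4 times below both others for 16 of the 150 genes (10.7%) at each time. Of all genes with a read, 5.37% at 36 HAI and 4.82% at 48 HAI were. The median over the 25 was 422 TPM in replicate 1 and 16.4 and 14.9 TPM in replicates 2 and 3 of 72-3 at 24 HAI. The median over the other 125 genes was 87.4, 81.2 and 62.7 TPM in the same libraries. For 15 of the 25, both replicates 2 and 3 at 24 HAI lay below the mean at 6 HAI. Without replicate 1 of 72-3 at 24 HAI, 106 of the 150 genes kept a level at 24 HAI no lower than at 6 and 12 HAI, and 17 lay below 6 HAI. For 44 genes, then, the sustained level in 72-3 rested on that library.

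**Figure D3:**
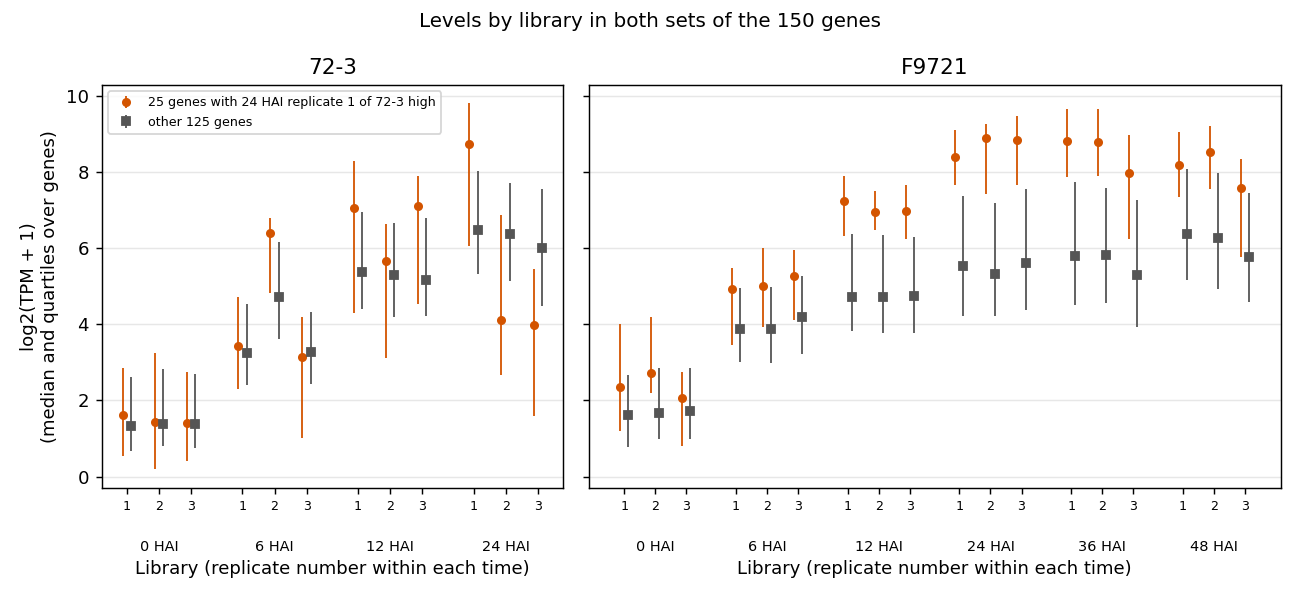
Levels by library as log2(TPM + 1), with the median and quartiles over genes, for the 25 genes that were high in replicate 1 of 72-3 at 24 HAI (circles) and for the other 125 genes (squares). In 72-3 at 24 HAI the median of the 25 was 422, 16.4 and 14.9 TPM in replicates 1, 2 and 3, whereas that of the other genes was 87.4, 81.2 and 62.7 TPM.

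Of the 87 genes in the interval that the study mapped for germination speed, 1 was among the 150. This gene, Zm00001d027338, belonged to the 25 as well. It had 7.30 to 8.78 TPM in dry seeds of 72-3, 20.7, 86.0 and 17.2 at 6 HAI, 92.2, 29.3 and 94.1 at 12 HAI and 206, 6.09 and 5.11 at 24 HAI. In F9721 it had 3.21 to 6.86 TPM in dry seeds, 29.5 to 53.8 at 6 HAI, 134 to 178 at 12 HAI and 307 to 456 at 24 HAI. It then had 317, 408 and 34.5 TPM at 36 HAI and 271, 275 and 24.6 TPM at 48 HAI, replicate 3 being far below the others. In replicates 2 and 3 of 72-3 at 24 HAI it was below every dry library of the line.

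How far the genes rose after 6 HAI differed among them. Genes were grouped by the change from 6 HAI to the last time as a plateau (under 1), a further rise (1 to under 3) or a steep rise (3 or more) on the log2 scale of TPM with 1 added. In 72-3, 15 genes had a plateau, 89 a further rise and 46 a steep rise, and in F9721 22, 86 and 42 did. On CPM, the second scale described below, the plateau group held 47 genes in 72-3 and 51 in F9721 and the steep group 15 and 22. On TPM in both lines alike 6 genes had a plateau, 63 a further rise and 29 a steep rise. Without replicate 1 of 72-3 at 24 HAI, 44 genes of 72-3 were in the plateau group, and without replicate 2 at 6 HAI 6 were, with 71 in the steep group.

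Zm00001d019277, with a steep rise in both lines, was the most abundant of the 150 in 72-3 at 24 HAI. In 72-3 it had 5.35 to 7.08 TPM in dry seeds, 66.2, 363 and 52.2 at 6 HAI, 982 to 1806 at 12 HAI and 7684, 7488 and 4461 at 24 HAI. Its levels in F9721 were 0.763 to 1.83 TPM in dry seeds, 12.4 to 20.9 at 6 HAI, 473 to 737 at 12 HAI, 2148 to 2734 at 24 HAI, 3827 to 5252 at 36 HAI and 2689 to 4447 at 48 HAI. No 2 neighbouring times up to 24 HAI overlapped in either line.

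The size of the later steps depended on the scale. TMM-normalised CPM (counts scaled to the library by a trimmed mean over genes) gives a lower value than TPM at later times by a constant for each library, which came to 0.68 on the log2 scale between 6 and 24 HAI in 72-3 and 0.80 between 6 and 48 HAI in F9721. From 6 HAI to the last time the median change was 2.11 on TPM and 1.49 on CPM in 72-3, and 2.27 on TPM and 1.49 on CPM in F9721. In 72-3 it was 2.71 on TPM and 2.11 on CPM without replicate 2 at 6 HAI, and 1.77 and 1.05 without replicate 1 at 24 HAI. On CPM 145 genes in 72-3 and 135 in F9721 were still above 6 HAI at the last time, and 118 were in 72-3 without replicate 1 at 24 HAI. Both parts of the rule held on CPM for 88 of the 150, because 144 rose by at least 1 in both lines and 93 had a last level no lower than at 6 and 12 HAI in both. The rise to 6 HAI was nearly the same on both scales, with a median of 2.17 on CPM in 72-3 and 1.97 in F9721.

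No later median step was as large as that from 6 to 12 HAI in either line, although the later intervals were longer. In 72-3 the median step was 1.39 on TPM and 0.97 on CPM at 12 HAI against 6 HAI, and 0.79 on TPM and 0.52 on CPM at 24 HAI against 12 HAI. Without replicate 2 at 6 HAI the first of these was 2.02 on TPM and 1.64 on CPM, and without replicate 1 at 24 HAI the second was 0.60 and 0.27. In F9721 it was 0.85 on TPM and 0.78 on CPM at 12 HAI against 6 HAI, 0.83 and 0.40 at 24 against 12 HAI, 0.23 and -0.11 at 36 against 24 HAI and 0.25 and 0.28 at 48 against 36 HAI. The step to 36 HAI thus had opposite signs on TPM and CPM.

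The libraries of F9721 at 24 and 36 HAI played no part in the choice of genes. At 24 HAI 149 of the 150 genes lay at least 1 above the dry seeds and 18 below 6 HAI, of which 0 by 1 or more (TPM, log2 scale). At 36 HAI 148 lay at least 1 above the dry seeds and 16 below 6 HAI, of which 2 by 1 or more. The highest mean of F9721 fell at 24 HAI for 27 genes, at 36 HAI for 34 and at 48 HAI for 89. Since the dry and 6 HAI libraries chose the genes, these counts are a description.

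The step from 24 to 36 HAI in F9721 is the only one whose libraries the choice did not read, and it was tested. Under the DEG thresholds in edgeR's quasi-likelihood test 0 of the 150 genes were higher at 36 HAI than at 24 HAI and 0 were lower, where 1.0% of all 34746 genes tested were higher and 2.92% lower. At an unadjusted p of at most 0.05, 11 were higher and 14 lower, where 16.1% and 18.2% of all genes were. DESeq2 called 1 DEG, higher at 36 HAI (1.04% of all genes), and limma on log2(TPM + 1) also called 1 (0.538%). By the adjusted p alone, at most 0.01 and with no fold minimum, 6 were higher and 4 lower, or 4% and 2.67% of the 150, where 7.59% and 9.98% of all genes were called. The fit on only the compared groups called more of the 150 higher by the adjusted p, as listed with the other fits at the end. For that fit no share over all genes is given. The spread in the main test was estimated over all groups, including 72-3 at 24 HAI. There replicate 1 was at least 4 times above both others for 16.7% of the 150 genes, against 3.86% of all genes. Its part in the low counts was not tested, so they do not show that the set changed less than all genes. On TPM limma called 12 higher and 2 lower, where 17.3% and 5.94% of all genes were called. Without replicate 2 or 3 at 24 HAI, or replicate 3 at 36 HAI, 2 rather than 4 were lower, and 8.09%, 8.47% and 7.71% of all genes were. The median log2 fold change was -0.12 over the 150 genes and 0 over all genes.

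**Figure D4:**
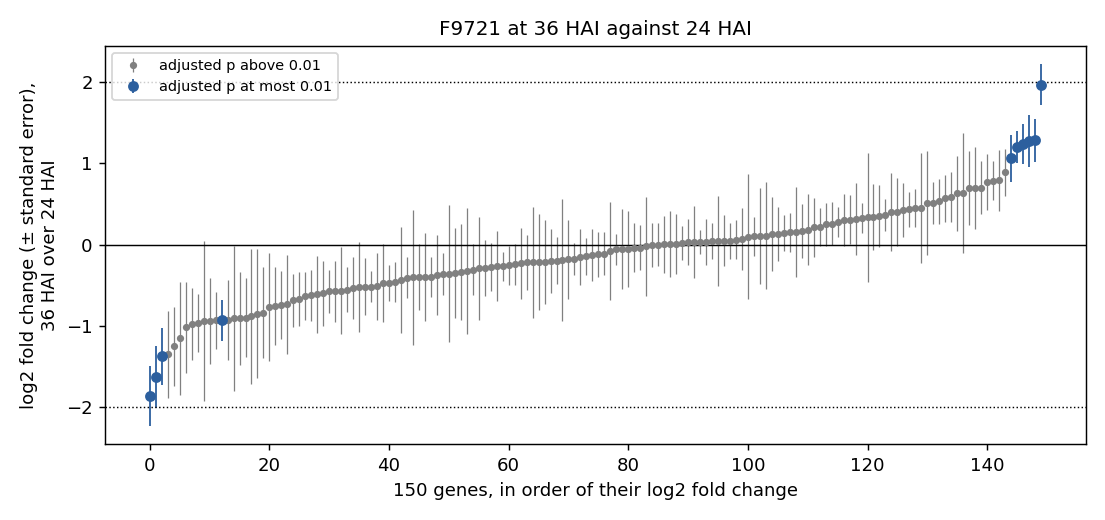
Log2 fold change of each of the 150 genes in F9721 at 36 HAI over 24 HAI with its standard error, ordered by size. Blue points have an adjusted p of at most 0.01 in edgeR's quasi-likelihood test, 6 higher and 4 lower. Dotted lines mark the fold threshold of 2 for DEGs, which 0 of the 150 passed.

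Zm00001d015914 changed most at this step. It had 154, 153 and 217 TPM at 36 HAI, against 32.9 to 35.9 TPM at 24 HAI. The log2 fold change was 1.97 with a standard error of 0.25 (adjusted p = 5.49e-07, edgeR's quasi-likelihood test). All libraries at 36 HAI were above those at 24 HAI, as they were for the 4 genes that follow.

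Zm00001d039079 had 169, 147 and 211 TPM at 36 HAI, against 56.3, 54.2 and 64.3 TPM at 24 HAI (log2 fold change 1.20, standard error 0.20, adjusted p = 2.36e-05 in edgeR). Zm00001d002006 had 359, 365 and 541 TPM at 36 HAI, against 187, 103 and 122 TPM at 24 HAI (1.24, standard error 0.25, adjusted p = 0.000305 in edgeR). Zm00001d022421 had 465, 491 and 589 TPM at 36 HAI, against 145, 149 and 193 TPM at 24 HAI (1.28, standard error 0.26, adjusted p = 0.000365 in edgeR). In 72-3 at 24 HAI Zm00001d022421 had 1120, 1858 and 2330 TPM. Zm00001d047253 had 868, 809 and 1298 TPM at 36 HAI, against 343, 232 and 365 TPM at 24 HAI (1.28, standard error 0.33, adjusted p = 0.00341 in edgeR), a call that was lost without replicate 1 or 2 at 24 HAI or replicate 3 at 36 HAI.

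Of the genes that fell, 3 had many reads. Zm00001d014491 had 86.7, 125 and 47.0 TPM at 36 HAI, against 201, 285 and 259 TPM at 24 HAI (log2 fold change -1.86, standard error 0.37, adjusted p = 0.000291 in edgeR). It was back at 268, 175 and 172 TPM at 48 HAI, which meets the rule through the last time alone. Zm00001d014317 had 30.2, 26.9 and 22.2 TPM at 36 HAI, against 36.3, 57.8 and 65.7 TPM at 24 HAI (-1.37, standard error 0.35, adjusted p = 0.00361 in edgeR). Zm00001d031892 had 165, 166 and 129 TPM at 36 HAI, against 187, 230 and 266 TPM at 24 HAI (-0.93, standard error 0.25, adjusted p = 0.00564 in edgeR). Each of these calls was lost on limma's TPM scale and on leaving out some single libraries, except that of Zm00001d014491.

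Zm00001d042104 also fell, but on few reads. It had 9, 4 and 5 counts at 36 HAI, against 16, 19 and 20 counts at 24 HAI (log2 fold change -1.63, standard error 0.38, adjusted p = 0.00152 in edgeR), and the call was lost without replicate 2 at 36 HAI.

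The lines were compared at the 3 earlier shared times. The rule treats both lines alike but reads these libraries and asks for a rise in each, so the counts are set beside those of all genes. In dry seeds 0 of the 150 genes were DEGs higher in 72-3 and 16 were lower (10.7%), where 5.16% of all genes were higher and 6.05% lower. At an unadjusted p of at most 0.05, 13 were higher and 43 lower, where 22.2% and 21.2% of all genes were. DESeq2 called 2 DEGs higher (4.78% of all genes). With limma on log2(TPM + 1) 7 DEGs were lower (1.79% of all genes), and in the fit of only these libraries 3 were higher and 27 lower (5.96% and 7.36% of all genes). By the adjusted p alone 4 were higher and 27 lower (14.5% and 13.7% of all genes). The median log2 fold change was -0.65 over the 150 genes and 0 over all genes, and -0.66 with genes at 0 counts in a line set to a limit of 3 counts and 13 genes at or under that limit in both lines left out.

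Zm00001d028693 had 0.846, 1.60 and 2.10 TPM in dry 72-3 seeds, against 9.83, 15.4 and 8.41 TPM in dry F9721 seeds (log2 fold change -3.05, standard error 0.29, adjusted p = 4.08e-10 in edgeR). It stayed lower in 72-3 at 24 HAI, with 109, 90.5 and 124 TPM in 72-3 and 185, 206 and 194 TPM in F9721. Zm00001d027461 had 2, 2 and 4 counts in dry 72-3 seeds, against 49, 52 and 38 counts in dry F9721 seeds (-3.88, standard error 0.52, adjusted p = 4.62e-07 in edgeR). At 6 HAI the lines overlapped for this gene, at 4.83, 11.6 and 5.48 TPM in 72-3 and 9.42, 10.1 and 10.9 TPM in F9721.

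At 6 HAI the count turned on a single library. With all libraries 5 of the 150 genes were DEGs higher in 72-3 and 9 were lower, where 5.51% and 5.85% of all genes were, and the median log2 fold change was -0.33. By the adjusted p alone 9 were higher and 24 lower (14.1% and 14.2% of all genes). Without replicate 2 of 72-3, 2 were DEGs higher and 23 lower, where 4.97% and 5.51% of all genes were in that fit. The adjusted p alone was then passed by 5 higher and 55 lower (12.4% and 12.5% of all genes), and the median was -1.06. Without replicate 1 or replicate 3 of 72-3, 15 rather than 24 passed the adjusted p alone as lower (11.9% and 11.5% of all genes).

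At 12 HAI, 7 genes were DEGs higher in 72-3 and 8 were lower, where 6.86% and 6.49% of all genes were. By the adjusted p alone 23 were higher and 25 lower (15.8% and 15.5% of all genes). The median was -0.14. On TPM, which lies higher in 72-3 than CPM does by 0.55 on the log2 scale at this time, limma called 41 higher and 11 lower by the adjusted p, where 28.8% and 7.81% of all genes were called. It called 12 and 2 as DEGs (3.51% and 1.61% of all genes), with a median of 0.37. The number of lower DEGs was 4 without replicate 2 of 72-3 (5.97% of all genes) and 5 without replicate 1 of F9721 (5.91%). With these left out, 14 and 16 rather than 25 were lower by the adjusted p alone (13.3% and 13.5% of all genes).

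**Figure D5:**
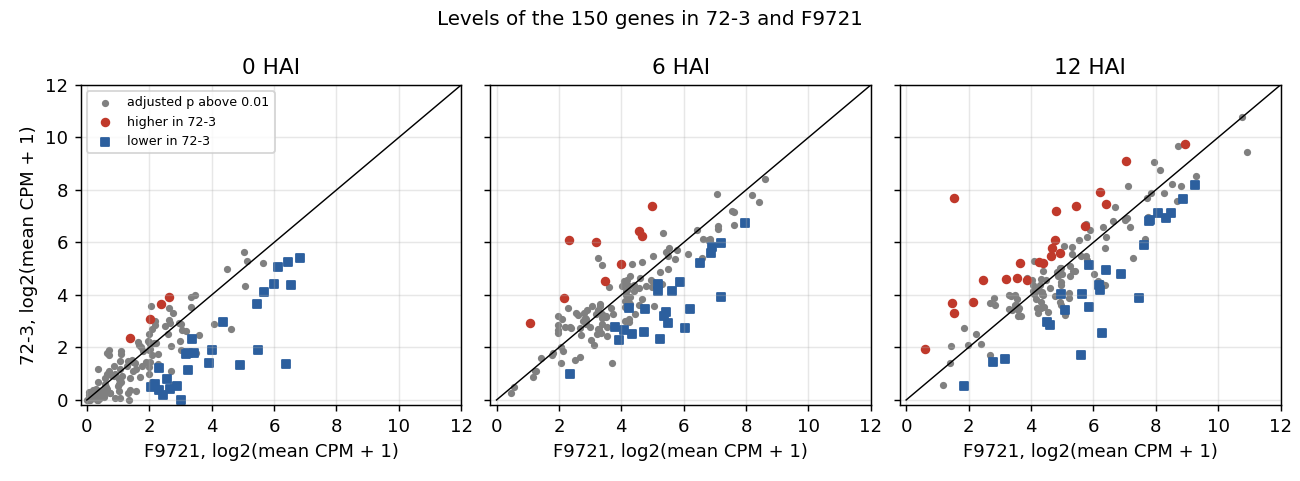
Mean level of each of the 150 genes as log2(mean CPM + 1) in 72-3 (vertical axis) and F9721 (horizontal axis) at 0, 6 and 12 HAI, with the line of equal level. Red circles are higher and blue squares lower in 72-3 at an adjusted p of at most 0.01 (edgeR), 4 and 27 in dry seeds, 9 and 24 at 6 HAI and 23 and 25 at 12 HAI.

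Zm00001d042104 separated the lines more than any other of the 150 at 6 and 12 HAI. In dry seeds it had 0, 1 and 2 counts in 72-3 and 0, 0 and 2 counts in F9721. At 6 HAI it had 103, 136 and 104 TPM in 72-3, against 6.09, 6.17 and 5.51 TPM in F9721 (log2 fold change 4.07, standard error 0.23, adjusted p = 4.95e-15 in edgeR). At 12 HAI it had 405, 467 and 509 TPM in 72-3, against 3.02, 2.29 and 3.24 TPM in F9721 (6.78, standard error 0.25, adjusted p = 1.16e-18 in edgeR). At 24 HAI it had 837, 922 and 970 TPM in 72-3 and 2.91, 3.07 and 3.12 TPM in F9721. In F9721 it was at 5.10, 7.35 and 11.4 TPM at 48 HAI, below every library of 72-3 at 6, 12 or 24 HAI. It met the rule in F9721 with a mean of 5.93 TPM at 6 HAI and 7.94 TPM at 48 HAI. On CPM its mean in F9721 was lower at 48 HAI than at 6 HAI, at 3.10 and 4.05. The level at 48 HAI rested on 22, 38 and 51 counts.

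Zm00001d043702 was higher in 72-3 at 12 HAI, with 169, 125 and 151 TPM in 72-3, against 10.7, 17.8 and 17.3 TPM in F9721 (log2 fold change 2.75, standard error 0.48, adjusted p = 2.14e-05 in edgeR). It reached 172, 90.0 and 128 TPM in F9721 at 48 HAI, after 4.52 to 14.4 TPM at 24 and 36 HAI. Zm00001d019002 had 261, 229 and 183 TPM in 72-3 at 12 HAI, against 26.7 to 34.3 TPM in F9721 (2.33, standard error 0.44, adjusted p = 6.66e-05 in edgeR). Its libraries in F9721 at 48 HAI were 123, 77.0 and 22.9 TPM.

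At 6 HAI Zm00001d019277 and Zm00001d034112 were higher in 72-3, at 2.96 (standard error 0.47) and 2.42 (standard error 0.48) on the log2 scale, with edgeR's adjusted p = 6.19e-06 and 0.00013. Zm00001d034112 had 54.1, 233 and 98.1 TPM in 72-3, against 16.9, 19.8 and 25.9 TPM in F9721. The libraries of the lines did not overlap for either gene, but without replicate 2 of 72-3 the changes were 1.52 and 1.64 and neither gene was a DEG.

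Zm00001d002871 was lower in 72-3 in dry seeds and at 6 HAI. It had 1.21, 0.483 and 1.17 TPM in dry 72-3 seeds, against 5.40, 5.32 and 3.31 TPM in dry F9721 seeds (log2 fold change -2.47, standard error 0.25, adjusted p = 1.37e-09 in edgeR). At 6 HAI it had 5.16, 4.79 and 4.43 TPM in 72-3, against 40.1, 41.0 and 45.5 TPM in F9721 (-3.33, standard error 0.21, adjusted p = 7.43e-14 in edgeR). At 24 HAI the order was turned, with 158, 122 and 137 TPM in 72-3 and 88.3, 85.8 and 82.7 TPM in F9721. It was among the 4 genes for which replicate 2 of 72-3 at 6 HAI was not the highest of its group.

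Zm00001d053394 was lower in 72-3 at both 6 and 12 HAI. It had 7.96, 25.1 and 8.47 TPM in 72-3 at 6 HAI, against 58.2, 57.7 and 65.4 TPM in F9721 (log2 fold change -2.29, standard error 0.27, adjusted p = 3.19e-08 in edgeR). At 12 HAI it had 36.7, 39.0 and 40.7 TPM in 72-3, against 110, 110 and 116 TPM in F9721 (-2.08, standard error 0.25, adjusted p = 5.15e-08 in edgeR). Zm00001d019750 was lower by 2.85 on the log2 scale at 6 HAI and by 2.13 at 12 HAI (log2 fold changes -2.85 and -2.13, standard errors 0.36 and 0.33, adjusted p = 1.3e-07 and 4.89e-06 in edgeR). It had 96.2, 51.6 and 46.9 TPM in 72-3 at 12 HAI, against 210, 162 and 203 TPM in F9721. Zm00001d017762 had 9.51, 6.59 and 9.97 TPM in 72-3 at 12 HAI, against 37.1, 31.2 and 27.7 TPM in F9721 (-2.45, standard error 0.37, adjusted p = 2.56e-06 in edgeR).

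Over the 3 times 31 of the 150 genes were DEGs between the lines at least once (20.7%), where 17.5% of all genes were, and 0 changed direction between DEG calls (0.0115% of all genes). Of these, 4 were higher and 7 lower in 72-3 at 2 or more times (5.28% and 5.66% of all genes), and 3 were lower at all 3 times (4.04% of all genes). The 3 were Zm00001d053394, Zm00001d019750 and, named after its values were seen, Zm00001d022081.

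At 24 HAI the lines are given as a description, because the rule sets a floor for 72-3 at this time and none for F9721. The level of 72-3 minus that of F9721 had a median of 0.48 on TPM with 1 added, with 53 genes at least 1 higher in 72-3 and 25 at least 1 lower. On CPM, which lies below TPM by 0.42 more in 72-3 than in F9721 at this time, the median was 0.10, with 34 and 31 genes. Without replicate 1 of 72-3 it was 0.29 on TPM and -0.18 on CPM, and 40 genes on TPM and 50 on CPM were at least 1 lower. No direction is therefore given for the 150 genes at 24 HAI. Set against F9721 at 48 HAI, when that line germinates, 72-3 at 24 HAI had a median difference of -0.18 on TPM and -0.25 on CPM, with 23 genes at least 1 higher and 32 at least 1 lower on TPM. Without replicate 1 of 72-3 at 24 HAI the median was -0.40 on TPM and -0.54 on CPM. On TPM 20 genes were then at least 1 higher and 52 at least 1 lower.

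The 150 genes also differed from the rest in a property the rule did not use directly. The ratio of counts to TPM within a library is proportional to the length the authors gave a gene. Relative to the median of 23947 genes with at least 20 counts in a library, the 150 had a median length of 0.381 with quartiles of 0.238 and 0.788, where all these genes had quartiles of 0.512 and 1.69. TPM gives short genes a higher level for the same count, and its part in the choice was not tested.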

How the data were processed

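RNA from whole seeds was sequenced in 30 libraries. After trimming by fastp, the authors mapped read pairs to B73 AGPv4 by HISAT2 and took counts per gene from HTSeq's union mode, which leaves out reads on several genes, so close copies and overlapping genes are uncertain. The deposited counts are raw, and the deposited TPM values sum to 1000000 per library. Versions, strand setting and gene lengths are not given in the sources used here. Reads outside genes made up 5.59% to 20.9% and ambiguous reads 1.60% to 2.11%, and both stayed out of the totals, whose median was 10887437.5.

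Members were found on TPM. Counts were fitted in R 4.3.3 with edgeR 4.0.16 (TMM, 10 group means, quasi-likelihood test), with Benjamini-Hochberg adjustment over the 34746 genes with at least 1 read. At most 3 counts in every library of a group was taken as the limit of detection, at most 0.398 CPM, and covers counting error only. On simulated counts of F9721 at 36 against 24 HAI over 29012 genes, the adjusted p called 50 of 50 genes at log2 fold changes of 3 and of -3, 49 at 1.5, 45 at -1.5 and 0 of 28812 unchanged genes. The changed genes were drawn from well counted genes, with the spread of the fitted model and a fit of only the compared groups. Power is therefore not shown for genes with a wide spread, such as Zm00001d008288 (standard error 0.98 at this step in edgeR).

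Genes were named by rule: the 10 largest rises, the 10 most abundant at 6 HAI, those at the edge of the 150, up to 5 per direction with the smallest p at 36 against 24 HAI, up to 3 per direction between the lines among DEGs without overlap, and members of the mapped interval. The members and lists were chosen with earlier results of these data known. Alternatives were DESeq2 1.42.0, its size factors, filterByExpr, a replicate block, only the compared groups, an adjusted p of at most 0.001, limma 3.58.1 on log2(TPM + 1), each library left out, and for the rule CPM, pseudocounts of 0.1 and 5, a mean of at least 10 counts and the median. After the values were seen, shape groups, medians and levels without single libraries, and medians on CPM, were added. Gene lists by name and promoter motifs could not be examined, as no identifier matched.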

Additional observations from a re-analysis of the deposited data

Results flagged for a closer look

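In 4 genes every library of 72-3 moved one way between successive times and every library of F9721 the other way, on TPM and CPM. These differences between the lines were not tested. No share over all genes is given for this count, so it does not show that the set differs from all genes. Zm00001d042104 changed by 1.60 in 72-3 and by -0.80 in F9721 at 12 against 6 HAI on log2(mean CPM + 1), a difference of 2.40. Zm00001d050864 changed by 0.72 in 72-3 and by -0.93 in F9721 at the same step, a difference of 1.66. Zm00001d006493 changed by 1.38 in 72-3 and by -0.51 in F9721 at this step, a difference of 1.89. Its level was 34.9 to 39.5 TPM in 72-3 and 9.99 to 12.8 TPM in F9721 at 12 HAI. Zm00001d002871 changed by 0.90 in 72-3 and by -0.76 in F9721 at 24 against 12 HAI, a difference of 1.66.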

How the results depend on the processing

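Of 288 values of 24 named genes under the alternatives, 263 kept the call, 25 lost it and 0 changed sign, and 13 genes kept it under all. The depth leaves genes with a few counts in dry seeds without a usable fold change. Many counts of called genes below have no share over all genes from the same fit, except where the results above give one. Without that share, a count shows only how the calls moved with the processing.

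At 36 against 24 HAI, 1 gene was a DEG higher with DESeq2, with its size factors in edgeR and with limma on TPM. By the adjusted p alone limma gave 12 higher and 2 lower, the fit on only the compared groups 13 higher, and the threshold of 0.001 gave 1 lower. Leaving out single libraries gave 0 to 1 DEG in each direction, and 2 to 4 lower by the adjusted p.

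Between the lines in dry seeds, DEGs higher numbered 2 with DESeq2 and 3 with only the compared groups. DEGs lower numbered 7 with limma and 27 with only the compared groups. By the adjusted p, 2 were higher at 0.001, 8 with DESeq2, 9 with limma and 18 with only the compared groups, which gave 50 lower. For these counts by the adjusted p no share over all genes is given. They therefore do not show whether the set differs from all genes. At 6 HAI leaving out single libraries gave 2 to 7 DEGs higher and 6 to 23 lower, 5 to 13 higher and 15 to 55 lower by the adjusted p, and the threshold of 0.001 gave 15 lower. At 12 HAI limma gave 12 DEGs higher and 2 lower and 41 higher and 11 lower by the adjusted p. The threshold of 0.001 gave 4 DEGs lower and 12 lower by the adjusted p. Only the compared groups gave 43 higher and 52 lower by the adjusted p. No share over all genes is given for that fit at 12 HAI, so its counts show only how the calls moved. Leaving out single libraries gave 4 to 8 DEGs lower and 14 to 24 lower by the adjusted p.

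DEGs at 6 HAI against dry seeds numbered 55 in 72-3 and 54 in F9721 with limma, and 51 to 100 in 72-3 on leaving out single libraries. The rule was met by 165 genes on CPM, 495 with a pseudocount of 0.1, 99 with 5, 163 with the median, and 155 to 267 on leaving out single libraries. Of the 150, 87 were among the 150 largest rises of the genes that met it on CPM, 98 with 0.1, 91 with 5 and 106 to 149 on leaving out single libraries, and the further gene that met it on CPM ranked lower. On CPM the plateau group held 47 genes in 72-3 and 51 in F9721 and the steep group 15 and 22. Without single libraries, chosen after the values were seen, the plateau group of 72-3 held 6 to 44 genes and the steep group 35 to 71. The median of 72-3 minus F9721 at 24 HAI on CPM, 0.10, was -0.18 without replicate 1 of 72-3, also chosen after the values were seen. Where scaling or pseudocount moved a count, the cause was not tested.

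Whether replicate numbers pair the libraries was not settled. Correlations of same-numbered deviations from the group mean ran from -0.24 to 0.23 over the comparisons checked. Deviations within groups of so few libraries cannot decide the question. The last step of F9721 was not among those comparisons. With a replicate block, 1 gene was a DEG higher in 72-3 in dry seeds, and at 36 against 24 HAI 6 were higher and 4 lower by the adjusted p.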
